A study of Mus musculus with 13 samples.

Results

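The 10 genes described here encode enzymes and transporters that supply cells with amino acids and that are known targets of the transcription factor ATF4: Asns, Phgdh, Psat1, Psph, Shmt2, Mthfd2, Aldh18a1, Slc7a11, Slc7a5 and Slc3a2. They were taken by gene symbol from the 55401 genes in the deposited tables; the rule itself uses no measured value, but the 10 genes were picked with earlier results of these data known. Each symbol had 1 row, and all 10 genes passed the filter on low counts that left 14985 genes for testing. They were followed in bulk RNA-seq of brain from male C57BL/6J mice in the cuprizone (CPZ) model, in which a copper chelator added to the chow damages myelinating oligodendrocytes. The control group (CTL, 5 libraries) received control chow for 6 weeks, the CPZ group (4 libraries) received 0.3% cuprizone chow for 4 weeks, and the recovery group (RCV, 4 libraries) received the same cuprizone chow for 4 weeks and then control chow for 2 weeks. CPZ brains were collected at week 4 and CTL and RCV brains at week 6, so that CPZ differed from both other groups in age at collection as well as in diet. The labels give an age of 6 to 8 weeks, whereas the paper states about 10 weeks. All mice were wild type and carried no transgene. The labels' treatment text gives 4, 3 and 3 mice for CTL, CPZ and RCV, fewer than the libraries analysed; each library was taken as 1 mouse, and n counts libraries throughout. The RNA came from 1 snap-frozen hemisphere, so that all brain cell types were pooled. The group of each library follows its treatment label; the RCV libraries carry titles that begin with "Veh".

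When amino acids run short or proteins misfold, kinases phosphorylate the initiation factor eIF2α, general translation falls and translation of Atf4 mRNA rises. ATF4 protein then binds C/EBP-ATF response elements, often as a dimer with a C/EBP protein, and switches on genes for amino acid uptake and synthesis, for one-carbon metabolism and for tRNA charging. This program is called the integrated stress response. Slc7a11 with Slc3a2 forms the cystine-glutamate exchanger, which brings in cystine for glutathione synthesis and releases glutamate, and Slc7a5 with Slc3a2 forms the large neutral amino acid exchanger LAT1. In the adult brain, serine synthesis is known mainly from astrocytes.

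For 9 of the 10 genes a promoter window was at hand in RefSeq (GRCm38.p6, 250 bases before to 50 after the transcription start), with 2 windows for Psat1; Slc7a5 was the other gene. The core of the C/EBP-ATF response element, TGATGNAA, was searched on both strands. It occurred in the windows of Asns and Slc7a11 and in no other window of the 10 genes. Of all 32851 windows, 3.97% held it. The stretches that hold it are shown because these genes were the least and the most changed of the 10; the element is in capitals, both are written 5′ to 3′ on the gene's own strand, which is the minus strand.
Asns, chr6:7693214-7693243: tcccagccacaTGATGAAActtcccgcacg
Slc7a11, chr3:50443652-50443681: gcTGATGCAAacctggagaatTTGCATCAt
In Asns the element, at chr6:7693225-7693232, began 23 bases before the RefSeq start. The span of Asns given further below is from GENCODE and begins at 7693254 on the minus strand. By that span the element lies within the gene. Slc7a11 had a pair of elements facing each other with 11 bases between them, the first beginning 66 bases before the RefSeq start and the second 47. The core of the antioxidant response element, TGACNNNGC, to which NRF2 binds and which was searched in the same way because Slc7a11 is a known NRF2 target, occurred in the windows of Asns, Phgdh and Psph and in 12.4% of all windows. These are matches of letters and were not measured as bound sites.

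Total estimated counts were 5422264 to 7486387 per library in CTL, 6743067 to 8197289 in CPZ and 4605100 to 6990717 in RCV, and the 10 genes had 15 to 1431 counts each per library. Brain markers moved with the groups. All 10 microglia markers rose in CPZ against CTL, with a summed level of 350 to 416 CPM (counts scaled to a common library size) in CTL, 1285 to 2711 in CPZ and 549 to 781 in RCV. All 8 markers of mature oligodendrocytes (MOL) fell, from 2323 to 4373 CPM in CTL to 1072 to 1773 in CPZ, and were at 3155 to 5317 in RCV. Of 8 astrocyte markers 3 were called higher and none lower, 6 had a positive log2 fold change and 1 was lower without overlap. The astrocyte sum was 1269 to 1584 CPM in CTL, 2083 to 2461 in CPZ and 1750 to 2149 in RCV. Gfap alone had means of 165 CPM in CTL, 890 in CPZ and 576 in RCV, so the sum does not show a rise of all astrocyte markers. None of the 8 neuron markers or the 8 endothelial markers passed the test in CPZ against CTL, and no marker of the 5 lists was at 0 in any group. In bulk tissue, fewer cells of a type and less RNA per cell cannot be told apart, and the part of these cell types in the results below was not tested.

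Against CTL, 9 of the 10 genes rose in CPZ and Asns did not pass the test. In CPM, the same 9 genes were higher in every CPZ library than in every CTL library. Across all genes tested, 7.66% were called higher and 2.50% lower in CPZ, and 8.25% were higher without overlap. The median log2 fold change of the 10 genes was 0.59, against -0.02 for all genes tested. A gene was called where edgeR's quasi-likelihood test gave it an adjusted p below 0.05, the 14985 genes being adjusted together after Benjamini and Hochberg. Fitted to TPM values (a level per transcript length) with limma, 6 of the 10 genes were called, and Psat1, Psph and Shmt2 were not (adjusted p = 0.0528, 0.0951 and 0.121). In TPM, CPZ and CTL libraries overlapped for Psph (CTL up to 18.43, CPZ from 17.96) and Shmt2 (CTL up to 23.92, CPZ from 21.43), as well as for Asns.

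**Figure D1:**
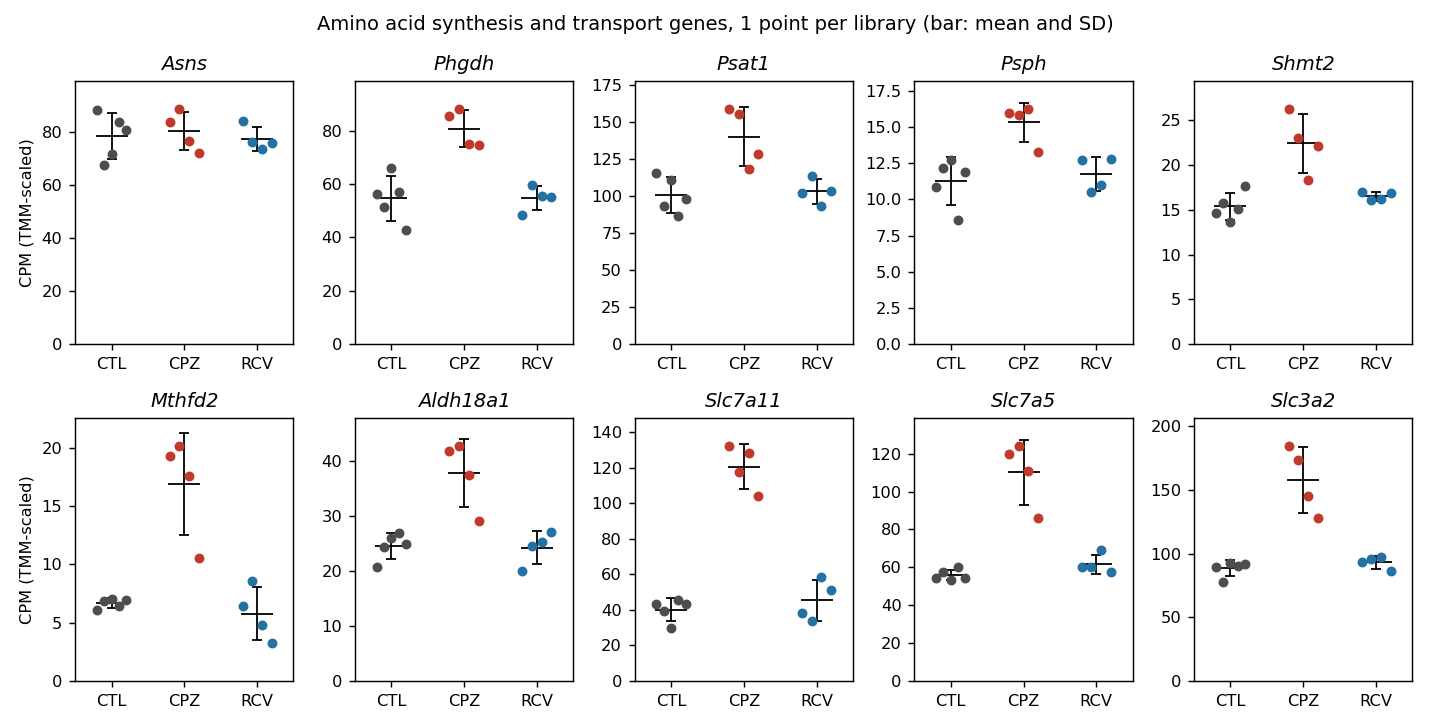
Level of each of the 10 genes in every library, in TMM-scaled CPM on an axis from 0, with 1 point per library and the mean and SD of each group (CTL n = 5, CPZ n = 4, RCV n = 4). The CPZ points lie above all CTL points for every gene but Asns, and the RCV points overlap the CTL points for all 10 genes.

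The 3 transporter genes showed 3 of the 4 largest rises. Slc7a11 (ENSMUSG00000027737.10, chr3:49892526-50443614, mm10, minus strand as for all 10 genes) encodes the xCT subunit that carries the cystine-glutamate exchange. Its level was 43.1, 39.2, 29.5, 45.6 and 43.1 CPM in CTL replicates 1 to 5. It was 132, 118, 128 and 104 CPM in CPZ replicates 1 to 4. The lowest CPZ library thus stood above the highest CTL library by more than the whole CTL range. The fold change was 3.01 (95% interval 2.39 to 3.78), or 1.59 ± 0.15 (SE) on the log2 scale, with adjusted p = 9.9e-06.

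Slc7a5 (ENSMUSG00000040010.10, chr8:121881150-121907694) encodes the light chain of LAT1, which exchanges leucine and other large neutral amino acids. CTL replicates 1 to 5 were at 54.5, 57.5, 53.3, 60.1 and 54.1 CPM and CPZ replicates 1 to 4 at 120, 124, 111 and 85.9 CPM. CTL libraries were close together, and CPZ replicate 4 was the lowest of its group but above all of them. The fold change was 1.97 (95% interval 1.72 to 2.26; adjusted p = 2.6e-06). The gene's span lies within that of Gm20388 on the opposite strand, which had 0 to 259 counts per library. Whether counting used the strand is not given in the sources used here, so reads of the 2 genes cannot be told apart.

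Slc3a2 (ENSMUSG00000010095.13, chr19:8706882-8723369) encodes CD98hc, the heavy chain that both light chains need to reach the cell surface. It measured 89.4, 77.4, 92.5, 90.4 and 92.2 CPM in CTL replicates 1 to 5, against 185, 174, 146 and 128 CPM in CPZ replicates 1 to 4. The groups did not overlap, and the fold change was 1.79 (95% interval 1.56 to 2.05; adjusted p = 1.1e-05).

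Because both light chains pair with the same heavy chain, their counts were also set against those of Slc3a2 within each library. This comparison and the other ratios below were chosen after the values had been seen, and the exact two-sided permutation p-values over libraries were adjusted over 12 ratios in each comparison. There were 0.482, 0.506, 0.319, 0.504 and 0.467 Slc7a11 counts per Slc3a2 count in CTL replicates 1 to 5, and 0.716, 0.677, 0.881 and 0.809 in CPZ replicates 1 to 4. The ratio was higher in 4 of 4 CPZ libraries than in any CTL library, by 0.77 on the log2 scale (exact permutation p = 0.0079, adjusted p = 0.0136; 0.0079 is the smallest p that 4 against 5 libraries allow). For Slc7a5 over Slc3a2 the ranges overlapped, at 0.576 to 0.742 in CTL and 0.65 to 0.762 in CPZ, and the difference of 0.14 did not pass (exact permutation p = 0.159, adjusted p = 0.159). Slc7a11 over Slc7a5 was 0.553 to 0.797 in CTL and 0.949 to 1.21 in CPZ, a difference of 0.63 (exact permutation p = 0.0079, adjusted p = 0.0136). Slc7a11 mRNA thus rose by more than that of either partner or counterpart in these libraries.

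**Figure D2:**
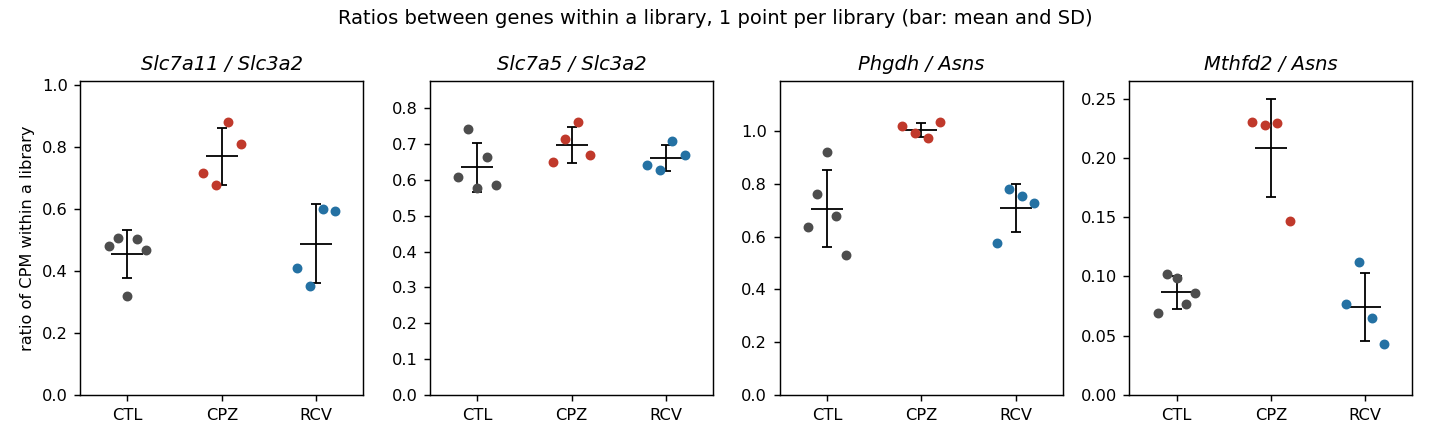
Counts of 1 gene divided by those of another within the same library (no unit, axes from 0), with 1 point per library and the mean and SD of each group. Slc7a11 over Slc3a2 lies at 0.677 to 0.881 in CPZ and at or below 0.602 in CTL and RCV, Slc7a5 over Slc3a2 overlaps between the 3 groups, and Phgdh and Mthfd2 over Asns are higher in every CPZ library than in any other library.

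The 3 enzymes of serine synthesis rose by folds of 1.36 to 1.48. Phgdh (ENSMUSG00000053398.11, chr3:98313170-98339990) encodes the first enzyme, which draws 3-phosphoglycerate from glycolysis. It was at 56.1, 51.5, 65.9, 56.9 and 42.9 CPM in CTL replicates 1 to 5 and at 85.4, 88.0, 74.9 and 74.8 CPM in CPZ replicates 1 to 4. The 2 ranges were apart. The fold change was 1.48 (95% interval 1.27 to 1.71; adjusted p = 0.0011). Psat1 (ENSMUSG00000024640.9, chr19:15904678-15947337), the aminotransferase of the second step, ranged from 86.5 to 116 CPM in CTL and from 119 to 159 CPM in CPZ. Its fold change was 1.39 (95% interval 1.20 to 1.61; adjusted p = 0.0046), with CPZ replicate 3 only just above the highest CTL library.

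Psph (ENSMUSG00000029446.14, chr5:129765558-129787449), the phosphatase that releases serine, was at 10.9, 12.2, 12.8, 8.56 and 11.9 CPM in CTL replicates 1 to 5 and at 16.0, 15.8, 16.2 and 13.3 CPM in CPZ replicates 1 to 4. The fold change was 1.36 (95% interval 1.14 to 1.63; adjusted p = 0.0264). This was the least secure of the 9 calls: the adjusted p was 0.0587 without CTL replicate 1, 0.0520 without CTL replicate 4, and 0.0742, 0.0760 and 0.0642 without CPZ replicates 1, 2 and 3. The span of Psph shares 452 bases with that of Cct6a on the opposite strand, which had 525 to 1001 counts per library, so that the counts of Psph are uncertain.

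Both mitochondrial enzymes of one-carbon metabolism rose. Mthfd2 (ENSMUSG00000005667.8, chr6:83305691-83325908), which oxidises methylene-tetrahydrofolate in mitochondria and is known to be low in most adult tissues, had the lowest counts of the 10 genes per library in CTL. It stood at 6.12, 6.90, 7.07, 6.42 and 6.97 CPM in CTL replicates 1 to 5 and at 19.3, 20.2, 17.6 and 10.6 CPM in CPZ replicates 1 to 4. CPZ replicate 4 was well below the other CPZ libraries and still above every CTL library. The fold change was 2.53 (95% interval 1.84 to 3.46), or 1.34 ± 0.21 (SE) on the log2 scale, with adjusted p = 0.00043. Shmt2 (ENSMUSG00000025403.5, chr10:127517123-127522444), which passes the serine carbon to folate and makes glycine, ranged from 13.7 to 17.6 CPM in CTL and from 18.3 to 26.2 CPM in CPZ, a fold change of 1.46 (95% interval 1.25 to 1.70; adjusted p = 0.0019).

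Aldh18a1 (ENSMUSG00000025007.13, chr19:40550257-40588463) encodes the mitochondrial enzyme P5CS, which starts proline synthesis from glutamate. Its level was 20.8 to 26.9 CPM in CTL and 29.2 to 42.8 CPM in CPZ, with CPZ replicate 4 again the lowest of its group. The fold change was 1.54 (95% interval 1.30 to 1.82; adjusted p = 0.0015).

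Asns (ENSMUSG00000029752.12, chr6:7675169-7693254) encodes asparagine synthetase, whose promoter element is the textbook example of amino acid sensing. It was at 88.5, 67.5, 71.8, 83.8 and 80.9 CPM in CTL replicates 1 to 5, at 83.8, 88.7, 76.9 and 72.3 CPM in CPZ replicates 1 to 4, and at 84.1, 76.5, 73.7 and 75.9 CPM in RCV replicates 1 to 4. All 3 groups overlapped. The CPZ against CTL fold change was 1.02 with a 95% interval of 0.907 to 1.16 (adjusted p = 0.867), an interval that lies below the fitted fold of each of the other 9 genes. Asns had 350 to 730 counts per library. Its mean in CTL, 78.5 CPM, was above those of all others of the 10 genes but Psat1 (101 CPM) and Slc3a2 (88.4 CPM). In CPZ its mean, 80.4 CPM, was also below those of Phgdh (80.8), Slc7a5 (110) and Slc7a11 (121 CPM).

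The other genes were also set against Asns within libraries. Asns was taken as the shared denominator after its values had been seen, and the libraries are those of the calls above. The p-values of these ratios are therefore not separate support for those calls. In CPZ against CTL, the ratio to Asns was higher for 8 of the 9 other genes (adjusted p from 0.0136 to 0.0190, exact permutation test over libraries), by 0.43 for Psat1 to 1.56 for Slc7a11 on the log2 scale. Psph over Asns was higher by 0.42 and did not pass (exact permutation p = 0.0556, adjusted p = 0.0606), with 0.102 to 0.18 in CTL and 0.178 to 0.211 in CPZ. Phgdh over Asns was 0.634, 0.762, 0.919, 0.679 and 0.531 in CTL replicates 1 to 5 and 1.02, 0.992, 0.975 and 1.03 in CPZ replicates 1 to 4, so that the 2 mRNAs had nearly equal counts in all CPZ libraries. None of the ratios to Asns passed in RCV against CTL (exact permutation test, adjusted p = 0.937 for each). In counts, 9 of 9 were higher in CPZ than in RCV (exact permutation p = 0.0286, adjusted p = 0.0312). An exact p of 0.0286 is the smallest that 4 against 4 libraries allow. All ratios used counts and were not repeated on TPM. On TPM the CPZ against RCV calls of Phgdh, Psat1, Shmt2 and Aldh18a1 were lost.

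CPZ libraries differed among themselves in these genes. CPZ replicate 4 was the lowest CPZ library for 8 of the 10 genes and the highest for none, whereas CPZ replicates 1 and 2 were the highest for 4 and 5 genes. The summed microglia markers were lowest in CPZ replicate 3 (1285 CPM) and next in replicate 4 (1611 CPM), against 2711 and 2359 CPM in replicates 1 and 2. The summed MOL markers were highest in CPZ replicate 4 (1773 CPM), against 1202, 1072 and 1185 CPM in replicates 1 to 3. Whether these marker levels bear on the order of the CPZ libraries was not tested. Without CPZ replicate 4, 9 of the 10 genes were called. After removal of the group means, the pair of genes that varied most closely together over the 13 libraries was Slc7a5 and Slc3a2 (r = 0.70), and the median over all 45 pairs was 0.23. Whether depth or marker levels bear on these correlations was not tested, and the values describe the libraries only.

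After 2 weeks of recovery, none of the 10 genes passed the test against CTL: 0 were called, 0 had an unadjusted p below 0.05 in edgeR's test, and 0 were called by DESeq2, limma-voom or limma on TPM. Of all genes tested, 0.360% were called higher and 0.0133% lower in RCV, and 2.21% were higher without overlap, so that few genes of any kind were called. The median log2 fold change of the 10 genes was 0.05. The intervals bound what could have been missed. For Slc7a11, RCV replicates 1 to 4 were at 38.3, 33.5, 58.7 and 51.2 CPM, with replicates 3 and 4 above all CTL libraries and replicates 1 and 2 within the CTL range. The fold against CTL was 1.13 (95% interval 0.882 to 1.44; adjusted p = 0.977).

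Slc7a5 was at 60.0, 60.1, 69.1 and 57.7 CPM in RCV replicates 1 to 4 and Slc3a2 at 93.5, 95.7, 97.6 and 86.3 CPM. Their folds against CTL were 1.10 (95% interval 0.959 to 1.27) and 1.06 (0.919 to 1.21). In CPM, Mthfd2 was the most variable of the 10 relative to its mean in RCV, at 6.45, 8.59, 4.81 and 3.25 CPM, and rested there on 15 to 53 counts per library. Its fold against CTL was 0.883 with a wide 95% interval, 0.616 to 1.27. For the serine enzymes the folds were 0.998 for Phgdh, 1.02 for Psat1 and 1.05 for Psph, with upper 95% limits of 1.16, 1.19 and 1.26. Those limits lie below the folds fitted for the same 3 genes in CPZ.

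**Figure D3:**
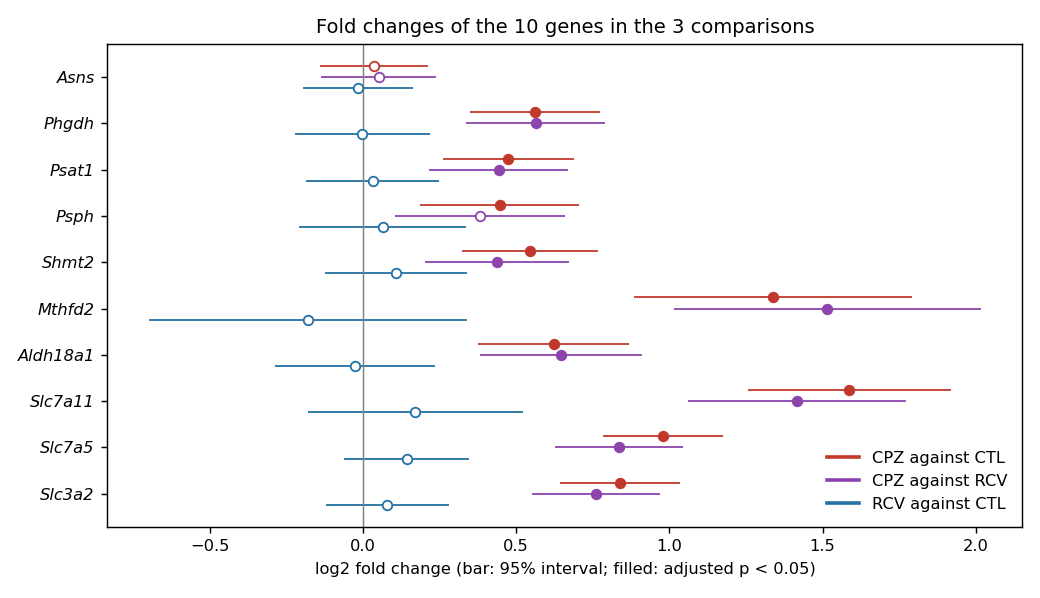
Fitted log2 fold change of each gene with its 95% interval in the 3 comparisons; filled points passed the test at an adjusted p below 0.05. The CPZ against CTL and CPZ against RCV points lie to the right of 0 and close to each other for 9 genes, and all RCV against CTL intervals contain 0.

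Set against RCV, 8 of the 10 genes were higher in CPZ, while 5.13% of all genes tested were called higher and 1.88% lower. Asns did not pass (fold 1.04, 95% interval 0.910 to 1.18, adjusted p = 0.826), nor did Psph (fold 1.30, 95% interval 1.07 to 1.58, adjusted p = 0.102). In CPM, no CPZ library overlapped an RCV library for 9 genes, against 8.26% of all genes tested. In TPM, CPZ and RCV libraries overlapped for Phgdh, Psat1, Psph, Shmt2 and Aldh18a1 as well as for Asns. This comparison shares the CPZ libraries with the one against CTL, so its values are given beside those and not as a second test. The log2 fold changes were 1.52 for Mthfd2 (1.34 against CTL), 1.42 for Slc7a11 (1.59), 0.84 for Slc7a5 (0.98), 0.76 for Slc3a2 (0.84), 0.65 for Aldh18a1 (0.62) and 0.56 for Phgdh (0.56). They were 0.44 for both Psat1 (0.47) and Shmt2 (0.55).

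Without 1 library, the log2 fold changes in CPZ against RCV were 0.39 to 0.52 for Psat1 and 0.36 to 0.53 for Shmt2. The calls of Psat1 (edgeR adjusted p = 0.0183) and Shmt2 (0.0245) were nevertheless lost on removal of any 1 of several libraries. At all 3 settings that used TPM these calls were lost, as were those of Phgdh (log2 fold change 0.31, adjusted p = 0.132 to 0.192) and Aldh18a1 (0.39 to 0.41, adjusted p = 0.229 to 0.345). For Psat1 the adjusted p was 0.0666 and 0.0680 without CPZ replicates 1 and 2, 0.0558 without RCV replicate 1 and 0.0629 without RCV replicate 3. For Shmt2 it was 0.0915 and 0.0696 without CPZ replicates 1 and 2, and 0.0555, 0.0546 and 0.0641 without RCV replicates 1, 2 and 3.

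Levels can be compared between genes only per length, and TPM served for this. In CTL, Slc3a2 was the most abundant of the 10 at 116 ± 12.2 TPM (SD, n = 5), followed by Asns at 87.9 ± 11.4, Psat1 at 86.8 ± 10.4 and Phgdh at 71.6 ± 4.23 TPM. The ranges of Asns, Psat1 and Phgdh overlapped from neighbour to neighbour, so their order was not resolved. Slc7a5 stood apart at 34.9 ± 1.81 TPM. Below it came Shmt2 (20.1 ± 3.58), Aldh18a1 (16.5 ± 1.53) and Psph (15.1 ± 2.23 TPM), which overlapped as neighbours, and then Slc7a11 (9.37 ± 1.64) and Mthfd2 (9.05 ± 1.42 TPM), which overlapped as well.

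In CPZ the order of the means changed at 2 places. Slc7a11 reached 26.8 ± 3.64 TPM (SD, n = 4) and stood with Shmt2, Aldh18a1, Psph and Mthfd2, at 26.2 to 19.8 TPM, as neighbours with overlapping ranges. Asns, at 89.0 ± 9.12 TPM, came after Psat1 (122 ± 25.5) and Phgdh (93.8 ± 8.83 TPM). Neighbours again overlapped, so the order of these genes was not resolved in CPZ either. Slc3a2 remained the most abundant at 196 ± 32.6 TPM. The TPM of the 10 genes summed to 467 ± 26.0 in CTL, 686 ± 93.5 in CPZ and 484 ± 12.5 in RCV. In RCV the order was close to that of CTL, with Slc3a2 first at 116 ± 3.84 TPM and Mthfd2 at 6.80 ± 2.33 TPM (SD, n = 4) overlapping Slc7a11 at the lower end.

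The regulators and further targets of the integrated stress response were examined as a list of 17 genes, chosen with earlier results of these data known. Of these, 11 rose and none fell in CPZ against CTL (7.66% of all genes tested were called higher), with a median log2 fold change of 0.79. In CPZ against RCV 10 were higher, where 5.13% of all genes tested were called higher. Atf5, a transcription factor translated under the same control as Atf4, had the smallest p-value and rose from 14.9 to 18.5 CPM in CTL to 90.9 to 138 CPM in CPZ, with 14.0 to 18.8 CPM in RCV (log2 fold change 2.86 ± 0.11 SE against CTL, adjusted p = 3.6e-10). Nupr1, a small stress-induced chromatin protein, rose by 2.71 ± 0.18 (adjusted p = 2.4e-07). Cebpg, a C/EBP protein that pairs with ATF4, rose by 0.87 ± 0.09 (adjusted p = 5.3e-06).

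Atf3, an ATF4 target that is itself a transcription factor, was at 0.136 to 0.615 CPM in CTL, with as few as 1 count in a library, at 5.16 to 12.8 CPM in CPZ and at 1.52 to 2.75 CPM in RCV. It rose in CPZ against CTL (log2 fold change 4.62 ± 0.37 SE, adjusted p = 8.7e-07) and was also higher in RCV than in CTL (2.59 ± 0.45, adjusted p = 0.0203). The RCV call was lost without any 1 of CTL replicates 1, 2 and 5 and RCV replicates 1 and 2, where 0 genes of the list were called. Atf3 was thus the 1 gene of the list called in RCV, at a level below that of every CPZ library. Atf4 mRNA itself, named here after its values were seen because it codes for the shared regulator, was at 69.5 to 77.1 CPM in CTL, 82.1 to 113 CPM in CPZ and 75.2 to 83.0 CPM in RCV (log2 fold change 0.43 ± 0.08 SE in CPZ against CTL, adjusted p = 0.0012). Of the 6 genes of the list that did not pass in CPZ against CTL, 3 code for the eIF2α kinases PERK, GCN2 and HRI (Eif2ak3, Eif2ak4 and Eif2ak1), with log2 fold changes of 0.06, -0.06 and 0.06; the fourth kinase of the list, PKR (Eif2ak2), rose by 1.27 ± 0.15 SE (adjusted p = 1.7e-05) and was higher by 1.06 than in RCV (adjusted p = 0.00066). These too were named after their values were seen.

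**Figure D4:**
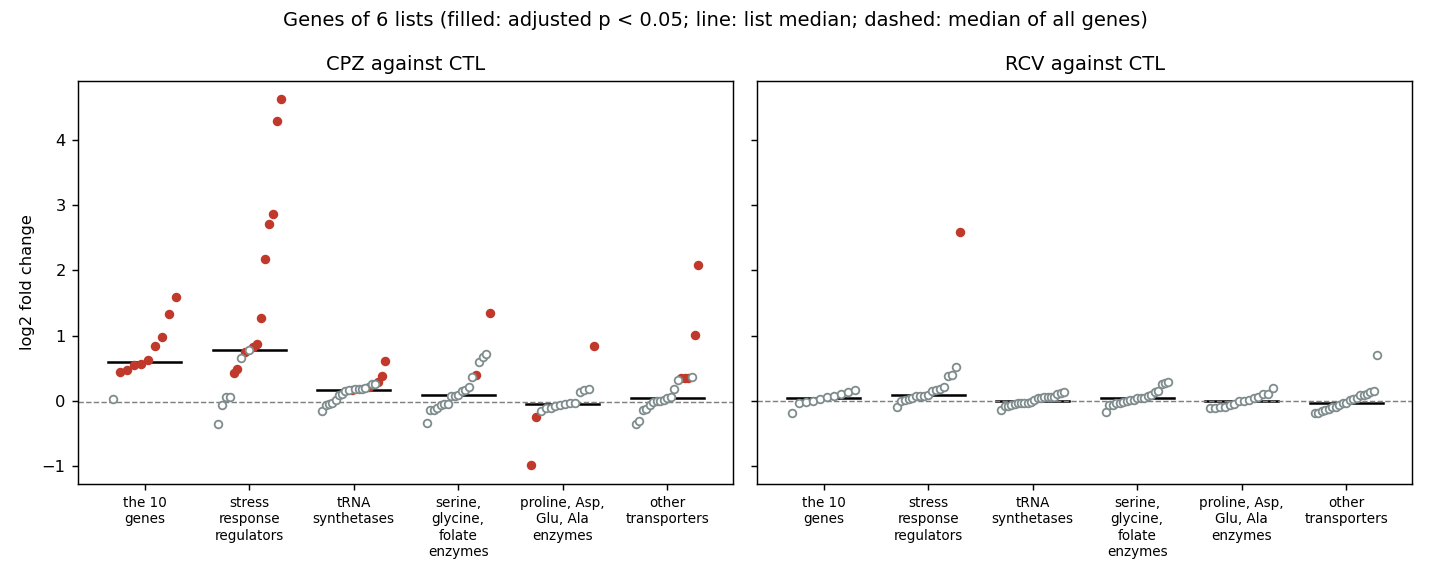
Log2 fold change of every tested gene of 6 lists in CPZ against CTL (left) and RCV against CTL (right); filled points passed the test, horizontal lines are list medians and the dashed line is the median of all genes tested. The 10 genes and the stress response list have medians of 0.59 and 0.79 in CPZ, the other 4 lists lie between -0.05 and 0.18, and in RCV only Atf3 passed.

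The neighbouring steps of the same pathways were examined as 4 further lists, also chosen with earlier results known; differences between lists were not tested. Of 19 other enzymes of serine, glycine and folate metabolism 2 rose and none fell in CPZ against CTL (median log2 fold change 0.09), a share close to the 7.66% of all genes tested that were called higher. Aldh1l2, the mitochondrial formyl-tetrahydrofolate dehydrogenase that acts after Mthfd2, rose from 4.95 to 7.07 CPM in CTL to 12.6 to 17.9 CPM in CPZ, by 1.35 ± 0.15 SE (adjusted p = 9.4e-06). Aldh1l1, its cytosolic counterpart and a known astrocyte gene, rose by 0.39 ± 0.08 (adjusted p = 0.0030). Both were also higher in CPZ than in RCV, by 1.06 (edgeR adjusted p = 0.00059) and 0.38 (edgeR adjusted p = 0.0120). No other gene of the list was called there, where 5.13% of all genes tested were called higher. Without RCV replicate 1, 1 of the 2 was called.

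Of 14 other enzymes of proline, aspartate, glutamate and alanine metabolism 1 rose and 2 fell in CPZ against CTL, where 7.66% of all genes tested were called higher and 2.50% lower; the single rise is at the share of all genes. Pycr1, which completes proline synthesis in mitochondria after Aldh18a1, rose from 2.14 to 2.57 CPM in CTL to 3.10 to 5.23 CPM in CPZ (log2 fold change 0.84 ± 0.23 SE, adjusted p = 0.0256). Gpt, the cytosolic alanine aminotransferase, fell from 9.17 to 13.1 CPM in CTL to 4.03 to 7.21 CPM in CPZ (-0.98 ± 0.18, adjusted p = 0.0014). Glul, the glutamine synthetase of astrocytes and oligodendrocytes, fell by 0.24 (adjusted p = 0.0292). The count for this list was 1 without CTL replicate 3 and 1 without CPZ replicate 2. In CPZ against RCV, Gpt and Glul were lower (edgeR adjusted p = 0.0093 and 0.0474), where 1.88% of all genes tested were called lower. Pycr1 did not pass (0.80, edgeR adjusted p = 0.0666). The count of 2 there was 1 without CPZ replicate 1, 2 or 3 or RCV replicate 1, 3 or 4.

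Among 20 other amino acid transporter genes, 19 were tested (Slc43a1 was not) and 5 rose in CPZ against CTL, against 7.66% of all genes tested. Slc7a7, the y+LAT1 light chain that also pairs with Slc3a2, was at 0.680 to 2.25 CPM in CTL and 2.77 to 7.92 CPM in CPZ (log2 fold change 2.09 ± 0.39 SE, adjusted p = 0.0017). Slc7a1, the cationic amino acid transporter, rose by 0.36 ± 0.07 (adjusted p = 0.0037), and the astrocyte glutamate transporter Slc1a3 rose by 0.36 ± 0.08 (adjusted p = 0.0051). The neutral amino acid transporter Slc1a4 rose by 0.35 ± 0.10 (adjusted p = 0.0381). The count was 3 without CTL replicate 1, 2 or 5 or CPZ replicate 1 or 2. In CPZ against RCV, 3 genes of the list were higher, where 5.13% of all genes tested were called higher. Among them were Slc7a1 at 0.50 (edgeR adjusted p = 0.0010) and Slc1a4 at 0.39 (edgeR adjusted p = 0.0430). Slc7a7 (1.38, edgeR adjusted p = 0.05005) and Slc1a3 (0.20, edgeR adjusted p = 0.182) did not pass. There the count was 1 without CPZ replicate 1 or 2 or RCV replicate 1 or 3.

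Of 20 cytosolic aminoacyl-tRNA synthetase genes, whose products load amino acids onto tRNA, 5 rose and none fell in CPZ against CTL, against 7.66% of all genes tested called higher, with a median log2 fold change of 0.18. Eprs, for glutamate and proline, rose by 0.61 ± 0.07 SE (adjusted p = 1.1e-05) and Lars, for leucine, by 0.38 ± 0.08 (adjusted p = 0.0053). Cars, for cysteine, and Aars, for alanine, rose by 0.29 and 0.21 (adjusted p = 0.0328 and 0.0329). The count was 3 without CTL replicate 1 or 3 and 2 without CTL replicate 2, CPZ replicate 1 or CPZ replicate 2. Nars, for asparagine, rose by 0.17 ± 0.05 (adjusted p = 0.0374) and is named after its values were seen, as the enzyme that uses the product of Asns. In CPZ against RCV, 4 were higher, where 5.13% of all genes tested were called higher. Among them were Eprs (0.47, edgeR adjusted p = 0.00077), Lars (0.32, edgeR adjusted p = 0.0380) and Aars (0.24, edgeR adjusted p = 0.0334). Cars (0.16, edgeR adjusted p = 0.332) did not pass. There the count was 1 without CPZ replicate 1 or 2 or RCV replicate 1, 3 or 4. None of these 4 lists had a gene called in RCV against CTL.

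Outside all lists, the genes whose levels followed the 9 risen genes most closely over the 13 libraries were Stab1, Igfbp3, Fcrls, Ctsb and Itga6, with r from 0.971 to 0.979 between their log2-CPM and the mean z-score of the 9 genes. Most of this likeness lies between groups that share a diet, and after removal of the group means r was 0.691 to 0.797. Stab1 encodes a scavenger receptor, Igfbp3 a binding protein of insulin-like growth factors, Fcrls an Fc receptor-like protein of microglia, Ctsb the lysosomal protease cathepsin B and Itga6 an integrin subunit. Stab1 was at 12.1 to 15.8 CPM in CTL, 33.4 to 59.6 CPM in CPZ and 14.7 to 16.7 CPM in RCV. Fcrls was at 13.5 to 16.1 CPM in CTL, 86.2 to 222 CPM in CPZ and 20.2 to 28.2 CPM in RCV.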

How the data were processed

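Bulk RNA-seq libraries (Kapa mRNA HyperPrep, paired-end reads of 50 bases) were sequenced from 13 brain hemispheres. The authors deposited unscaled estimated counts, of which 4.45% were not whole, and a TPM table; STAR and RSEM (versions not given in the sources used here) and mm10 stand in the submitters' processing notes. The 92 spike-in rows held 0 counts and were left out. Counts were rounded, passed through filterByExpr by group and TMM, and analysed by edgeR 4.0.16 (R 4.3.3; quasi-likelihood F test, robust) in 1 fit of 13 libraries with 1 mean per group and no covariate, with Benjamini-Hochberg adjustment and a threshold of 0.05. Levels are TMM-scaled CPM of the tested genes; log2-CPM used a prior count of 2. Alternatives were DESeq2 1.42.0, limma 3.58.1 (voom, and log2(TPM + 1) or log2(TPM + 0.1)), other filters, 2 groups only, a replicate block and leaving out each library. The edgeR step was tested on simulated data. Same-group libraries differed by more than counting noise. P-values judge a difference between groups against the spread between libraries. The 10 genes and all lists were chosen with earlier results of these data known. Named from each further list were at most 4 genes called in CPZ against CTL with the smallest p, plus any called in RCV against CTL, and, by likeness, 5 genes whose mean log2-CPM was 1 or more. Gene positions are from GENCODE M21 and promoter sequences from RefSeq.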

Additional observations from a re-analysis of the deposited data

Results flagged for a closer look

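Within the 30 sets of libraries examined (10 genes in 3 groups), 2 held a library that stood apart from the rest of its group, where chance gives about 1 in 20. Psph in CPZ replicate 4 was at 13.3 CPM, with the nearest CPZ library at 15.8 CPM and the highest at 16.2 CPM. Slc3a2 in CTL replicate 2 was at 77.4 CPM, with the nearest CTL library at 89.4 CPM and the highest at 92.5 CPM. Without CPZ replicate 4 and without CTL replicate 2, 9 of the 10 genes were called in CPZ against CTL in each case.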

How the results depend on the processing

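Over 19 alternatives in each comparison with CTL and 18 in CPZ against RCV, no called fold change of the 10 genes changed direction, and 0 of the 10 genes were called in RCV against CTL in any of them. The scaling of DESeq2, its Wald test, limma-voom, both count filters and the fit of 2 groups kept 9 calls in CPZ against CTL and 8 in CPZ against RCV. With limma on log2(TPM + 1) without a filter 5 genes were called in CPZ against CTL (Aldh18a1 was lost as well, adjusted p = 0.0735), and in CPZ against RCV 4 were called on log2(TPM + 1), on log2(TPM + 0.1) and without a filter; the cause was not tested. Leaving out 1 library gave 8 to 9 calls in CPZ against CTL and 6 to 8 in CPZ against RCV. Over all genes, 1522 calls in CPZ against CTL became 993 on TPM without a filter, and 1050 in CPZ against RCV became 584, 503 and 477 at the 3 TPM settings and 632 and 693 without CPZ replicates 1 and 2. The 56 in RCV against CTL became 131 with the Wald test, 16 with limma-voom or TPM without a filter, 20 with at least 10 counts in every library, and 21 to 54 without 1 library.

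The further lists were less stable, again with the cause not tested. In CPZ against CTL, limma on TPM called 1 synthetase at each setting, and 2, 2 and 1 transporters on log2(TPM + 1), on log2(TPM + 0.1) and without a filter; the Wald test called 5 enzymes of the proline and glutamate list in place of 3. Without 1 library the counts were 3 to 5 transporters, 2 to 7 synthetases and 1 to 3 enzymes of the proline list. In CPZ against RCV, limma on TPM called 1 gene of each of these 3 lists at each setting. There, limma-voom called 2 synthetases, no filter on counts 5 transporters and 1 proline enzyme, the Wald test 5 transporters, at least 10 counts 1 proline enzyme, and the fit of 2 groups 1 proline enzyme and 2 synthetases. Without 1 library the counts there were 1 to 4 transporters, 1 to 4 synthetases, 1 to 3 proline enzymes and 1 to 3 enzymes of the serine list. The Atf3 call in RCV was lost (0 genes) under limma-voom, the 3 TPM settings and the fit of 2 groups, and the range without 1 library was 0 to 1. With at least 10 counts in every library the count was 0 as well, because Atf3, with as few as 1 count in CTL, was left out by that filter. No ratio between genes moved, without 1 library, by more than the larger of the SDs of the 2 groups compared; some moved by more than the smaller SD.

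Replicate numbers did not pair the libraries: deviations of same-numbered libraries correlated from -0.199 to 0.136 over 12 pairs, and 1 of 12 libraries correlated best with its own number. With the replicate block, 8 of the 10 genes were called in CPZ against CTL (Psph had an adjusted p of 0.0618), 8 in CPZ against RCV and 0 in RCV against CTL; 1172 genes in all were called in CPZ against CTL in place of 1522. The block gave 3 transporters, 3 synthetases and 1 proline enzyme in CPZ against CTL, 0 stress response genes in RCV against CTL, and 1 transporter, 2 synthetases and 1 proline enzyme in CPZ against RCV. With 15 counts at the lowest, Mthfd2 had the widest interval in RCV.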
